A study of Rattus norvegicus with 6 samples.

Results

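The Cyp2c family of the rat is a set of cytochrome P450 enzymes of the endoplasmic reticulum, and its members were followed here on 13 array probes of 7 genes. The members were Cyp2c6v1 (also written Cyp2c6), Cyp2c7, Cyp2c11, Cyp2c12, Cyp2c13, Cyp2c22, Cyp2c23 and Cyp2c24, and a probe was taken as a member when its transcript accession belonged to one of these 8 genes. Of 61657 probes other than controls on each array, 13 met this rule, and of 15284 genes named on the array 7 were members. Cyp2c7 had 6 probes, Cyp2c6v1 had 2, and Cyp2c11, Cyp2c12, Cyp2c13, Cyp2c22 and Cyp2c23 had 1 each. Cyp2c24 matched 0 probes and has no value here.

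Total liver RNA came from 6 male Sprague-Dawley rats of the Crl:CD(SD) stock, bought at 5 weeks of age and all kept on a basal diet with tap water. Of these, 3 received phenolphthalein (1000 mg/kg/day), a pH dye formerly used as a laxative, and 3 received corn oil. Treatment lasted 9 weeks by the treatment protocol but 28 days by the design text, and the files do not settle which. Each animal had 1 array with 1 colour. The phenolphthalein arrays shared slide 2 and scan 2 and the corn oil arrays slide 1 and scan 1, so treatment, slide and scan cannot be told apart in any difference given below.

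The family's enzymes hydroxylate steroids and drugs and turn arachidonic acid into epoxides, taking electrons from P450 reductase. In rat liver several members are marked by sex, because the pulses of growth hormone in males and its steadier level in females act on their genes through STAT5b. Others answer to drugs through CAR and PXR, the nuclear receptors that phenobarbital and similar compounds engage.

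Cyp2c6v1, the phenobarbital-inducible member, had the clearest difference of the family, with a signal 1.96-fold and 1.82-fold higher on its 2 probes in phenolphthalein livers. Cyp2c11, the main testosterone hydroxylase of male liver, was 1.32-fold higher, and these were the only genes of the family whose groups did not overlap. The 6 probes of Cyp2c7, a female-predominant member, all had a lower mean with phenolphthalein, by up to 1.41-fold, and Cyp2c12, the female-specific member, had a mean 1.87-fold lower, but their groups overlapped. Cyp2c13, Cyp2c22 and Cyp2c23 had means that differed by less than the spread between animals. None of the 13 probes passed limma's test with Benjamini-Hochberg adjustment at 0.05 over the 39411 probes tested, where 0.0482% of all probes passed, and 3 of the 13 had an unadjusted p under 0.05, against 13.2% of all probes.

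In the values that follow, the level of a probe on an array is its signal divided by the array's 75th percentile, or log2 of that ratio where so stated. All 13 probes were well above background on 6 of 6 arrays, so each of them passed the filter on dim probes in both groups. No spot was saturated, and the brightest Cyp2c spot reached 41.2% of the scanner's saturation value. Levels of different genes are not compared, since probes differ in how strongly they bind.

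**Figure D1:**
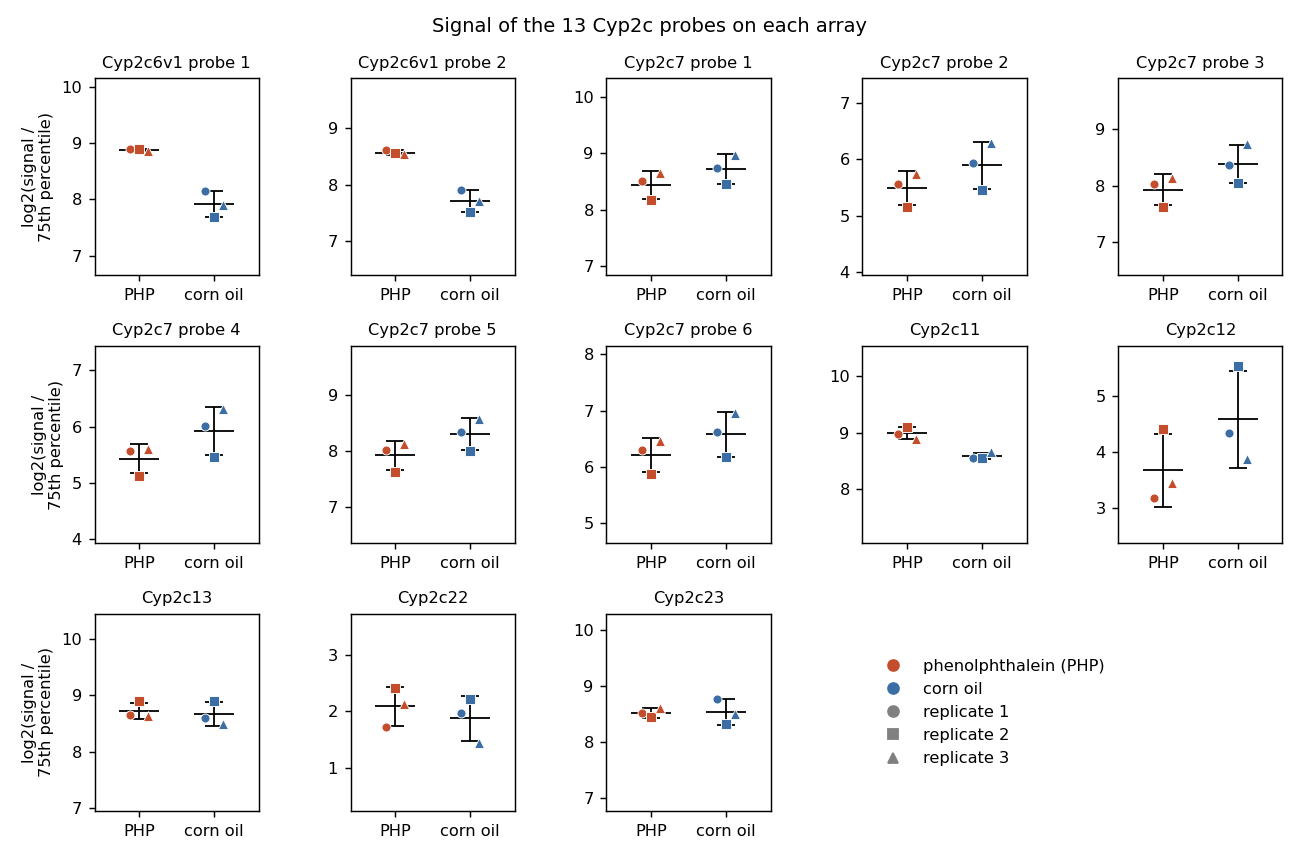
Signal of each of the 13 Cyp2c probes on each array, as log2 of the signal over the array's 75th percentile, with phenolphthalein (PHP, orange) left of corn oil (blue). Marker shape gives the replicate number, the horizontal line is the mean and the bar 1 SD of 3 animals; every panel spans the same number of log2 units. Both Cyp2c6v1 probes and Cyp2c11 show no overlap between groups, and the panels of Cyp2c7, with 6 probes, repeat 1 order of animals.

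Cyp2c6v1 codes for a P450 found in both sexes and inducible by phenobarbital. Its brighter probe (A_44_P133140) read 477, 474 and 466 times the 75th percentile in phenolphthalein replicates 1 to 3, against 284, 207 and 239 times in corn oil replicates 1 to 3. Its dimmer probe (A_64_P033170) read 392, 376 and 374 in phenolphthalein replicates, against 239, 183 and 208 in corn oil replicates. On both probes the lowest phenolphthalein animal lay well above the highest corn oil animal. The animals given phenolphthalein also lay close together, spanning 1.02-fold on the brighter probe, while corn oil animals spanned 1.37-fold.

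The log2 level of the brighter Cyp2c6v1 probe averaged 8.88 ± 0.02 in phenolphthalein livers and 7.91 ± 0.23 in corn oil livers (SD, n = 3 each). The log2 fold change was 0.97 ± 0.13 (SE), with a limma adjusted p of 0.125 over all probes and a 95% interval of 0.65 to 1.29. For the dimmer probe the log2 fold change was 0.86 ± 0.12 (SE), with a limma adjusted p of 0.129. By unadjusted p the Cyp2c6v1 probes ranked 90 and 97 of 39411. Adjusted over 11434 genes, each by its brightest probe, Cyp2c6v1 had a limma adjusted p of 0.0972. Among 16 alternative settings the brighter probe passed only with the normexp background correction, with a log2 fold change of 1.09 and a limma adjusted p of 0.0446, and over all 16 that p ran from 0.0446 to 0.391.

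Both probes of Cyp2c6v1 put the animals of a group in the same order. The Cyp2c genes are close paralogs and probe sequences were not used here, so how much of a probe's signal comes from another member was not tested.

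Cyp2c11 codes for the testosterone 2-alpha and 16-alpha hydroxylase that is male-specific in adult rat liver. Its single probe (A_44_P280786) read 502, 548 and 474 times the 75th percentile in phenolphthalein replicates 1 to 3, against 376, 374 and 403 times in corn oil replicates 1 to 3. All phenolphthalein animals lay above all corn oil animals. The log2 level averaged 8.99 ± 0.11 in phenolphthalein livers and 8.58 ± 0.06 in corn oil livers (SD, n = 3 each). The log2 fold change was 0.40 ± 0.09 (SE), with a limma adjusted p of 0.216. Its spread between animals was small, since 16.8% of all probes had a smaller SD within groups.

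Cyp2c13, the other male-specific member, is a steroid hydroxylase as well. Its probe (A_44_P327817) read 400, 475 and 397 times the 75th percentile with phenolphthalein, against 388, 479 and 362 times with corn oil. Replicate 2 stood highest in both groups and the groups overlapped throughout. The log2 fold change was 0.06 ± 0.14 (SE), with a limma adjusted p of 0.884 and a 95% interval of -0.29 to 0.40. That interval reaches close to the log2 fold change of Cyp2c11, and the difference between the genes was not tested.

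Cyp2c7 codes for a P450 that is higher in female liver and oxidises retinoic acid. Its brightest probe (A_43_P13939) read 362, 288 and 400 times the 75th percentile in phenolphthalein replicates 1 to 3, against 427, 350 and 503 times in corn oil replicates 1 to 3. Its dimmest probe (A_44_P698234) read 47.4, 35.0 and 48.5 with phenolphthalein, against 64.3, 44.0 and 79.4 with corn oil. Replicate 2 was the lowest animal of its group on 6 of 6 probes with phenolphthalein and on 6 of 6 with corn oil, and replicate 3 was the highest on 6 of 6 in both. The highest phenolphthalein animals lay above the lowest corn oil animal, so the groups overlapped on 6 of 6 probes.

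Over the 6 Cyp2c7 probes the log2 fold change ran from -0.49 to -0.28, with a median of -0.39 and SEs of 0.18 to 0.25. The limma adjusted p ran from 0.433 to 0.551. All probes followed the same animals. The median deviation from a probe's own mean was -0.11, -0.52 and 0.03 log2 units in phenolphthalein replicates 1 to 3 and 0.23, -0.17 and 0.57 in corn oil replicates 1 to 3. These probes carry 1 transcript accession and read the same animals, so their 6 lower means are not independent observations. Leaving out 1 animal moved the value of the brightest probe between -0.42 and -0.15, the weakest without phenolphthalein replicate 2. Without corn oil replicate 2 the 6 probes ran from -0.73 to -0.42, with a limma adjusted p of 0.358 to 0.456. In that fit 5 of them had an unadjusted p under 0.05, against 0 with all animals, as did 4549 of all 39411 probes. Without corn oil replicate 3 the 6 probes ran from -0.30 to -0.16, and none had an unadjusted p under 0.05.

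Cyp2c12 codes for the steroid sulfate 15-beta hydroxylase that is the female-specific member, held low in male liver by pulsed growth hormone. Its probe (A_44_P139673) read 9.05, 21.3 and 10.9 times the 75th percentile with phenolphthalein, against 20.2, 46.5 and 14.7 times with corn oil. Corn oil replicate 2 stood highest, and phenolphthalein replicate 2 lay above 2 of the 3 corn oil animals. The animals spanned 2.35-fold with phenolphthalein and 3.17-fold with corn oil, and 96.5% of all probes had a smaller SD within groups. The log2 fold change was -0.90 ± 0.51 (SE), with a limma adjusted p of 0.496 and a 95% interval of -2.16 to 0.35. Without corn oil replicate 2 it was -0.43 and without phenolphthalein replicate 2 it was -1.27.

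**Figure D2:**
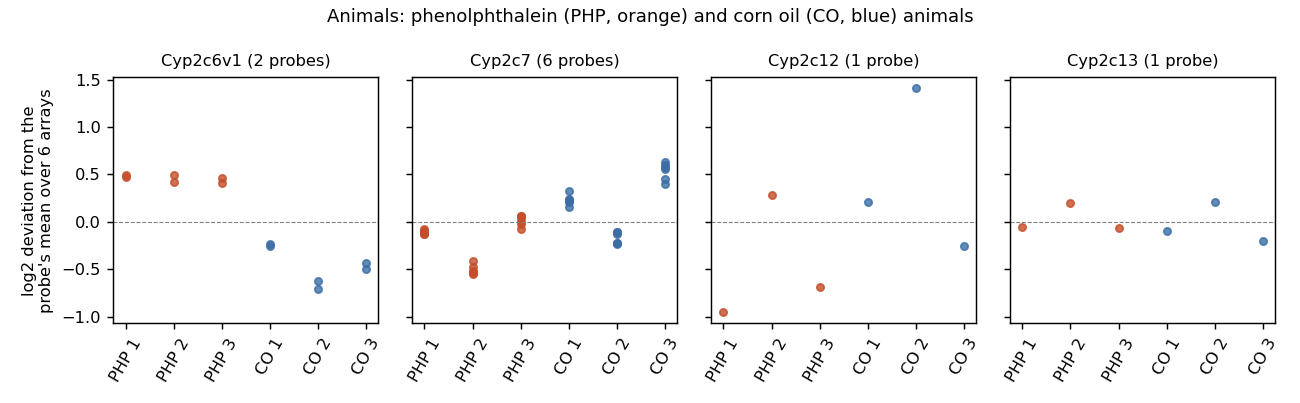
Log2 deviation of each probe from its own mean over the 6 arrays (vertical axis), by animal (horizontal axis), for Cyp2c6v1, Cyp2c7, Cyp2c12 and Cyp2c13, with phenolphthalein (PHP) in orange left of corn oil (CO) in blue. Each point is 1 probe on 1 array. In both groups replicate 2 is lowest on the Cyp2c7 probes and highest on Cyp2c12 and Cyp2c13, whereas Cyp2c6v1 separates the groups.

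The animal with the lowest Cyp2c7 signal was thus, in both groups, the animal with the highest Cyp2c12, Cyp2c13 and Cyp2c22 signals. Among corn oil animals Cyp2c7 and Cyp2c12, both female-marked genes, stood in opposite order, with replicate 3 highest on Cyp2c7 and lowest on Cyp2c12. Among phenolphthalein animals replicate 3 was highest on Cyp2c7 as well, but replicate 1 was lowest on Cyp2c12. No label pairs animals across the groups by replicate number, and whether same-numbered animals share a factor was not tested for these genes.

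Cyp2c22 is another P450 that oxidises retinoic acid. Its probe (A_44_P287842) read 3.29, 5.33 and 4.39 times the 75th percentile with phenolphthalein, against 3.91, 4.69 and 2.70 times with corn oil. The groups overlapped, and the log2 fold change was 0.21 ± 0.26 (SE), with a limma adjusted p of 0.756 and a 95% interval of -0.43 to 0.86. Cyp2c23, an arachidonic acid epoxygenase best known from kidney, had a bright probe (A_42_P514057). It read 366, 347 and 390 times the 75th percentile with phenolphthalein, against 437, 321 and 363 times with corn oil. Here too the groups overlapped, with corn oil replicate 1 highest. The log2 fold change was -0.01 ± 0.13 (SE), with a limma adjusted p of 0.974 and a 95% interval of -0.34 to 0.31. A 2-fold difference lies outside these intervals for Cyp2c13, Cyp2c22 and Cyp2c23.

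**Figure D3:**
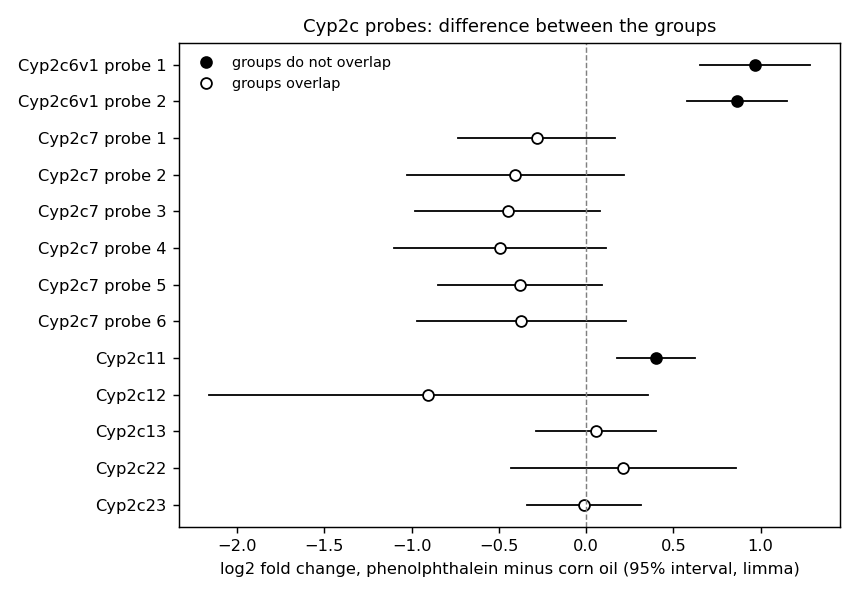
Log2 fold change of each Cyp2c probe, phenolphthalein minus corn oil (horizontal axis), with its 95% interval from limma, unadjusted for the number of probes. Filled points mark probes whose groups did not overlap and open points those that overlapped; the 3 filled points belong to Cyp2c6v1 and Cyp2c11.

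Counted over probes, 3 of 13 had all phenolphthalein arrays above all corn oil arrays, against 11.8% of all probes, and 0 of 13 had them all below, against 9.23%. Counted over genes by the brightest probe, 2 of 7 lay above and 0 lay below, against 12.2% and 11% of all genes. With 7 genes these shares do not set the family apart from other genes. The median log2 fold change was 0.06 over the 7 brightest probes, beside 0.01 over all 11434 genes, and the mean was higher for 4 genes and lower for 3. An exact two-sided permutation test of 3 animals against 3 cannot give a p under 0.1, and it gave 0.1 for both Cyp2c6v1 probes and for Cyp2c11.

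Cyp2c6v1 and Cyp2c7 differed in the direction of their means, although they lie close together on chromosome 1, with 1 annotated gene between them in the RefSeq table of assembly GRCr8. Cyp2c12 and Cyp2c13 are direct neighbours there, as are Cyp2c11 and Cyp2c24, while Cyp2c23 stands apart from the rest.

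Promoter sequence was set beside these values to show how alike the members are in it. The table of RefSeq promoters on GRCr8 matched 7 of the 8 members, all except Cyp2c6v1. The 250 bases before the transcript start are shown for the male-specific Cyp2c11 and Cyp2c13 and the female-marked Cyp2c7 and Cyp2c12. Capitals mark matches, on either strand, to patterns that stand for factors of liver P450 genes. The TATA box was searched as TATAAA, and the nuclear receptor half-site as AGGTCA or in its other common form, written as AGTTCA. The core of Onecut factors was searched as ATCAAT, the STAT site as TTCNNNGAA and the core of HNF4 as CAAAGTCCA.
Cyp2c11, chr1:246174966-246175215 (+ strand): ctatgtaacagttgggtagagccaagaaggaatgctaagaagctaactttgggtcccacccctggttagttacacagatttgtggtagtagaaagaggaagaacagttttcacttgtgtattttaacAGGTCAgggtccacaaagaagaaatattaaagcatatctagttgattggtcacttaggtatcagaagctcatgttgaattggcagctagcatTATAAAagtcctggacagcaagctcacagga
Cyp2c7, chr1:247966144-247966393 (+ strand): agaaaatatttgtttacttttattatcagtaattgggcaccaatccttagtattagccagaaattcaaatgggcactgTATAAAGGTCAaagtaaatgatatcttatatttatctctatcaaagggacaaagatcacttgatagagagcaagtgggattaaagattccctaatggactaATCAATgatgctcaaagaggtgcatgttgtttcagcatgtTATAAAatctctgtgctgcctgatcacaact
Cyp2c12, chr1:248677035-248677284 (- strand): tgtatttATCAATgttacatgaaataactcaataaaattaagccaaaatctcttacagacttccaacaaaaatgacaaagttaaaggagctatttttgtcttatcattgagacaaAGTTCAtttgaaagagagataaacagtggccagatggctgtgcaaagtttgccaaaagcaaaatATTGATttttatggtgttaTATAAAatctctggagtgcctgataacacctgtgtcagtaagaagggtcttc
Cyp2c13, chr1:248787189-248787438 (- strand): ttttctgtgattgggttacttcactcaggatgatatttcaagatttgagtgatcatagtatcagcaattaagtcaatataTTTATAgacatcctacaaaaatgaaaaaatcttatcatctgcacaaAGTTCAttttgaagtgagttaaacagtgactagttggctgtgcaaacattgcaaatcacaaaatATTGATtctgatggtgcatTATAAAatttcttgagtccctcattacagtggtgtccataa

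All 4 sequences held TATAAA, as did 12.9% of 33469 promoter windows of the same length. ATCAAT or its reverse stood once or more in Cyp2c7, Cyp2c12 and Cyp2c13, against 7.10% of windows, and had no match in the Cyp2c11 window. AGGTCA matched once in Cyp2c11 and once in Cyp2c7, where it shares a base with a TATAAA match, against 14.1% of windows. AGTTCA matched in Cyp2c12 and Cyp2c13, against 12.2%. The STAT and HNF4 patterns, found in 7.67% and 0.338% of windows, had no match in these 4. The windows of Cyp2c12 and Cyp2c13 were identical at 77.3% of aligned bases, the closest of the pairs shown, while their log2 fold changes were -0.90 and 0.06. Those of Cyp2c7 and Cyp2c12 were identical at 69.9%. A match describes letters alone, and the array build named in the file headers, rn4, is not the build of these sequences.

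Genes that work with the Cyp2c enzymes or act on their genes are given by their brightest probe, with p adjusted over all 39411 probes, and 0.0525% of the 11434 genes passed. Of 24 measured CAR and PXR target genes outside the family, 6 rose, 0 fell and 18 did not pass limma's test. The mean was higher for 24 of 24, against 51.8% of all genes, and the median log2 fold change was 0.56. Most of the 6 belong to 1 family, Cyp2b, and how much of a probe's signal comes from another Cyp2b gene was not tested. Of the 19 probes called over the whole array, which hold these 6 genes, 4 passed in limma without phenolphthalein replicate 3. None of them passed when phenolphthalein replicate 1 or 2 or corn oil replicate 1, 2 or 3 was left out, nor without the filter on dim probes or with the replicate block. An unadjusted p under 0.05, quoted below for the other lists and the cell markers, was found for 14.2% of all genes. Cyp2b1 and Cyp2b2, the phenobarbital-inducible P450s of rat liver, were 12.2-fold and 11.2-fold higher, each with a limma adjusted p of 0.0206. The 1.96-fold of Cyp2c6v1 lay below these values, and that difference was not tested. Of 6 electron partners of P450 enzymes 0 passed and 2 had an unadjusted p under 0.05, with a median of 0.16. The log2 fold changes of cytochrome b5, Cyb5a, and of P450 reductase, Por, were 0.40 ± 0.10 and 0.71 ± 0.27 (SE).

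Among 11 other male-predominant genes 0 passed in limma and 2 had an unadjusted p under 0.05, with a median log2 fold change of 0.08. The mean was higher for 6 of the 11 and lower for 5. Cyp3a2, a male-specific steroid hydroxylase, had one of 0.54 ± 0.09 (SE) and Mup4, a major urinary protein, one of 0.29 ± 0.12, beside 0.40 for Cyp2c11. Among 6 other female-predominant genes 0 passed, 0 had an unadjusted p under 0.05, and the median was -0.75. Of these 6, 4 had a lower mean and 2 a higher one, so Cyp2a1, with a higher mean, went against most of its list. Those 2 genes are also among the CAR and PXR targets. The lowest value of the list, -3.50, came from a dim probe. That probe was well above background on 1 of 3 phenolphthalein and 2 of 3 corn oil arrays. Cyp2a1, a testosterone 7-alpha hydroxylase, had a log2 fold change of 0.36 ± 0.16 (SE). A1bg had one of -1.05 ± 0.48, with its probe well above background on 2 of 3 phenolphthalein and 3 of 3 corn oil arrays. Of 23 regulators of liver P450 genes 0 passed and 2 had an unadjusted p under 0.05, with a median of -0.0012. For Jak2, the kinase of the growth hormone receptor, the value was -0.22 ± 0.08 (SE), and for Rxra, the partner of CAR and PXR, it was 0.29 ± 0.11.

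Of 21 arachidonate and eicosanoid enzymes outside the family 0 passed and 3 had an unadjusted p under 0.05, with a median of -0.11. The values were -0.70 ± 0.21 (SE) for Pla2g4a, a phospholipase that frees arachidonic acid, and -0.63 ± 0.21 for Cyp4a1, a fatty acid omega-hydroxylase. Of 15 genes of retinoid handling 0 passed and 1 had an unadjusted p under 0.05, with a median of -0.02. The mean was higher for 7 of them and lower for 8, beside the negative Cyp2c7 values and 0.21 for Cyp2c22. For Rdh10, a retinol dehydrogenase, the log2 fold change was -0.22 ± 0.09 (SE), and for Adh4, an alcohol dehydrogenase, it was -1.09 ± 0.47.

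Markers of the tissue were read beside the family, which is made by hepatocytes, and in whole liver fewer cells of a type and less RNA per cell cannot be told apart. A summed level adds linear signals, so it is led by the brightest probes of its list and does not weigh the markers alike. The summed level of 10 hepatocyte markers was 5445 to 5621 times the 75th percentile with phenolphthalein and 5212 to 5602 with corn oil, with values of 0.10 for Fgb and 0.09 for Ttr in log2 fold change. For 10 pericentral markers, of the zone in which many P450 genes are strongest, the summed level was 459.9 to 524 with phenolphthalein and 466 to 576 with corn oil, and 2 had an unadjusted p under 0.05. Cyp1a2 had a log2 fold change of 0.47 and Glul one of -0.49. The mean was lower for 8 of the 10 pericentral markers, with a median log2 fold change of -0.24, so Cyp1a2 went against most of its list. For 8 periportal markers the sum was 806 to 942 with phenolphthalein and 724 to 832 with corn oil, and Gls2 and Arg1 had values of 0.19 and 0.30. The mean was higher for 7 of these 8, against 51.8% of all genes. Of the hepatocyte and periportal markers 0 had an unadjusted p under 0.05.

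The summed level of 12 Kupffer cell markers was 146 to 192 with phenolphthalein and 196 to 279 with corn oil, with a lower mean in 12 of 12. Of these, 10 had an unadjusted p under 0.05 and 0 passed after adjustment. Marco had a log2 fold change of -1.45 and Cd163 one of -0.63. For 8 lymphocyte markers the sum was 2.46 to 2.85 with phenolphthalein and 3.43 to 4.03 with corn oil, with -0.59 for Ptprc and -0.50 for Lck, and 4 of the 8, all lower, had an unadjusted p under 0.05. Ptprc is carried by other leukocytes as well, so this sum is not of lymphocytes alone. Its mean log2 level was the highest of the 8, at 0.12 with phenolphthalein and 0.71 with corn oil. The sum of 6 sinusoidal endothelial markers was 58.7 to 65.3 with phenolphthalein and 64.2 to 66.3 with corn oil, with -0.29 for Cdh5 and -0.24 for Tek. That of 9 stellate cell markers was 34.1 to 47.3 with phenolphthalein and 41.7 to 46.9 with corn oil, with -0.48 for Col1a1 and -0.51 for Dcn. In each of the endothelial and stellate lists 1 marker, lower in mean, had an unadjusted p under 0.05. For 6 bile duct markers it was 2.53 to 2.59 with phenolphthalein and 2.04 to 2.27 with corn oil, with 0.85 for Cftr and 0.92 for Spp1, and 3 of the 6, all higher, had an unadjusted p under 0.05. No marker of these lists passed limma's adjusted threshold, and their part in the Cyp2c values was not tested.

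The genes most like a member were sought among 11419 other named genes by the root mean square difference between profiles over 6 arrays, each centred on its mean. For Cyp2c11, whose own profile departs from its mean by 0.21 log2 units, they were Sod2 at 0.04, Gstm2 at 0.04 and Sri at 0.05. For the brighter probe of Cyp2c6v1, whose profile departs by 0.50, they included Cacnb2 at 0.16 and Mphosph9 at 0.16.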

How the data were processed

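Liver RNA was labelled with Cy3, the only dye, and hybridised to Agilent arrays, per the labels' protocols. Spot intensity in the deposited scanner files was made with Feature Extraction 10.7.1.1, per the file headers (10.7, per the submitters' processing notes), which subtracted background and removed spatial trends within each array. In the authors' deposited table each column is that intensity over a constant for the array, a match that held within 0.00501% for values above 1. Its column medians were 0.0955, 0.0941 and 0.096 for phenolphthalein replicates 1 to 3 and 0.0984, 0.101 and 0.102 for corn oil replicates 1 to 3, and it has a linear scale, no centring of genes and an unchanged direction.

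Here log2 of the processed signal minus the array's 75th percentile was used. The percentile was 551 to 578 with phenolphthalein and 595 to 636 with corn oil. Outlier-marked spots, 4 to 14 per array, were set missing, and the filter kept 39411 probes, those well above background on 3 or more of the 6 arrays, whatever their group. Arrays correlated at 0.980 to 0.987 within phenolphthalein, 0.988 to 0.989 within corn oil and 0.979 to 0.987 between groups, over probes, which are not independent replicates. Names came from accessions in the RefSeq table of GRCr8, which named 27460 probes. Phenolphthalein minus corn oil was tested in limma 3.58.1 (R 4.3.3) with lmFit and eBayes and adjusted over all probes. The fit was also run on simulated data, with added differences larger than that of any Cyp2c probe here. The outcome is not reported here, and it does not cover differences of the size seen in this family. The number of arrays limits the precision, and 1 array is 1 animal.

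The members, lists and tests were chosen with earlier results of these data known. The named genes are every member, the 2 genes of each list with the smallest p, Cyp2b1 and Cyp2b2, and the 3 genes most like Cyp2c11 and the member probe with the smallest p, of which 1 is not reported here. Alternatives were other background corrections, normalizations, filters and priors, outlier spots kept, the deposited values, 1 probe per gene, a replicate block, and each array left out. Normexp ran on the median spot signal.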

Additional observations from a re-analysis of the deposited data

How the results depend on the processing

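No Cyp2c probe and no Cyp2c gene passed limma's adjusted threshold in 15 of 16 alternatives, and with normexp 1 probe and 1 gene passed, Cyp2c6v1. At an unadjusted p under 0.05 there were 3 Cyp2c probes in the reported fit and 5 with quantile normalization. There were 8 without corn oil replicate 2 and 10 with the replicate number as a block. Over all 39411 probes the counts were 5206, 5318, 4549 and 4507, in the same order. With quantile normalization or without corn oil replicate 2, the Cyp2c probes beyond the 3 were all of Cyp2c7, 1 transcript on the same animals. Over all probes 19 passed in the reported fit, 0 without the filter on dim probes and 0 with the replicate block, where 5708 and 4507 had an unadjusted p under 0.05, and 7 with 1 probe per named gene, where fewer features were tested. Leaving out 1 array gave 0 to 5 probes past the threshold, with 5 without phenolphthalein replicate 3, of which 4 were among the 19, and 1 without corn oil replicate 3, which was not. No label pairs the arrays by replicate number. The deviations of same-numbered arrays from their group means correlated over all probes at -0.01, 0.02 and 0.01 for numbers 1 to 3. A correlation over all probes cannot show whether same-numbered arrays share a factor for single genes. The replicate block, which gave 0 calls, changed no Cyp2c call. With it the SE of Cyp2c12 was 0.19 and its unadjusted limma p 0.0090, beside 0.51 and 0.129 in the reported fit.

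Of 202 alternative values of Cyp2c probes, 193 kept direction and side, 1 passed and 8 turned sign. Cyp2c23 turned to 0.0029 with normexp and 0.065 with the median shift, and ran from -0.12 to 0.11 without 1 array. Cyp2c13 turned to -0.053 with quantile normalization and ran from -0.027 to 0.18 without 1 array. Cyp2c22 ran from -0.0092 to 0.40 without 1 array. The cause was not tested. Cyp2c6v1 ran from 0.86 to 1.09 on its brighter probe and from 0.77 to 0.96 on its dimmer one, and Cyp2c11 from 0.31 to 0.51.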
